A study of Mus musculus with 6 samples.

Results

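Calm2 and Calm3 are genes of calmodulin, and Calml4 is the gene of a calmodulin-like protein. These 3 genes, of 47643 listed, were taken by symbol and were all among the 11574 with enough counts to be tested. Sums over calmodulin transcripts below cover Calm2 and Calm3 only, and are not all of the calmodulin mRNA in a cell. The 6 libraries are of ependymal cells, the multiciliated lining of the brain's ventricles, taken from the V-SVZ (the ventricular-subventricular zone) of adult mice and purified by FACS for GFP. Both genotypes were given tamoxifen 2 days before, and in both it turned GFP on in ependymal cells. In the conditional knockout (cKO, 3 samples) Ccn1, which encodes a secreted matricellular protein, was deleted as well, and in the control (3 samples) it was not. The sources used here do not give the Cre driver, the exact age or whether animals were pooled.

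Calmodulin is a small protein that changes shape when it binds calcium through its EF-hands, helix-loop-helix calcium-binding units. It then docks onto kinases, the phosphatase calcineurin, pumps, channels and myosins. In motile cilia it is also a fixed part of the axoneme, where it sits on the radial spokes and the central pair, so a ciliated cell carries it both as a sensor and as a building block. Mammals encode the same calmodulin protein in several genes. Calml4 is a more distant relative, known as a light chain of Myo7b in the adhesion complex that ties brush border microvilli together, and it is also expressed in ciliated cells.

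The coding sequences show how reads of Calm2 and Calm3 can be told apart although the protein is the same. In the GENCODE M21 transcripts Calm2-201 and Calm3-201 the coding sequence was 450 bases long in both and translated to an identical chain of 149 residues. The bases differed at 78 of 450 positions, 74 of them at the third base of a codon, and the longest identical stretch was 17 bases. Bases 1 to 150 of each coding sequence are given here, 5′ to 3′, with the bases that differ between the pair in capitals (23 in this stretch). The same stretch of Calml4 is given without capitals.
Calm2-201: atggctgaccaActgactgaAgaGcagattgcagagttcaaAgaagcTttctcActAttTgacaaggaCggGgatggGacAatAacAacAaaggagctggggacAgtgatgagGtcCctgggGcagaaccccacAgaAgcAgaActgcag
Calm3-201: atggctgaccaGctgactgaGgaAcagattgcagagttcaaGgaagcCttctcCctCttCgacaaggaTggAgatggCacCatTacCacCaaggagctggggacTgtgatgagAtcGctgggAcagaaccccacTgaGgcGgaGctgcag
Calml4-201: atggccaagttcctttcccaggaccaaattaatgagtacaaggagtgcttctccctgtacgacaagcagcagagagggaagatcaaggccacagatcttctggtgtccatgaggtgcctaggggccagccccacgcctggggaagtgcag

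Calml4-201 coded for 153 residues, of which 66 of 149 aligned residues (44.3%) were those of calmodulin. A search for the canonical EF-hand calcium-binding loop (aspartate first, a glycine in the middle, glutamate last) matched 4 loops in the translated Calm2 and Calm3 and 0 in Calml4. That result says only that this pattern is not in the Calml4 sequence. None of the 31-base words of Calm2-201 (1175), Calm3-201 (2260) or Calml4-201 (834) occurred in both transcripts of any pair of them. Against all other GENCODE M21 genes, 270 words of Calm2 recurred in 3 processed pseudogenes (Gm7308, Gm15720 and Gm14480) and 122 words of Calm3 in 1 (Gm5881), while Calml4 shared 0. In the deposited files these pseudogenes held at most 1 estimated count in any library. The estimated counts of all 3 genes were whole numbers to within 0.01 in all 6 libraries, as they were for 65.8% of the 2669 tested genes averaging 1000 counts or more.

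On GRCm38, by the GENCODE M21 annotation, the minus-strand gene Calm2 (ENSMUSG00000036438) occupies 87433412 to 87446935 of chromosome 17. Calm3 (ENSMUSG00000019370), also on the minus strand, occupies 16915379 to 16924114 of chromosome 7. Calml4 (ENSMUSG00000032246), on the plus strand, occupies 62858080 to 62875921 of chromosome 9. The minus-strand pseudogene Gm10653 spans the start of Calml4, but their exons share 0 bases, and Gm10653 was listed at 0 in every library.

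The 6 libraries held 13401499 to 15689579 estimated counts each. Ccn1 itself, with 238 to 524 counts in the cKO and 1665 to 2224 in the control, stood at 21.5% of its control level. Its log2 difference was -2.22 ± 0.38 (SE), with an edgeR quasi-likelihood adjusted p of 0.99999 over all genes (unadjusted 0.000415). By that test 0 of 11574 genes (0%) passed at an adjusted p of 0.05. Without adjustment 318 genes (2.75%) were under that value, 1.43% of all tested being higher and 1.31% lower in the cKO. Limma-voom called 0 (0%), with 608 unadjusted (5.25%), and DESeq2 called 198 (1.63%). Control 1 and control 3 had the largest totals and the fewest detected genes (12460 and 13024 against 13690 to 14530 elsewhere). Nothing in the labels says that the samples were separate animals, so p-values measure the spread between these samples only.

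Calm2 was one of the most abundant transcripts of these cells. It stood at 5134, 4359 and 4554 TPM in cKO 1 to 3, a level per transcript length scaled to the library's total, and at 4203, 4329 and 4409 TPM in control 1 to 3. That placed it between rank 17 and rank 24 of all listed genes, near the ependymal marker Tmem212, whose mean was 5299 ± 295 TPM for cKO and 5605 ± 599 TPM for control (SD, n = 3 each). The groups overlapped, since cKO 2 lay below control 3, and cKO 1 was the highest library. Means were 4682 ± 403 TPM for cKO and 4314 ± 104 TPM for control (SD, n = 3 each). Behind them were 47560 to 60226 estimated counts per library. The log2 difference in counts was 0.12 ± 0.11 (SE), with a 95% interval from -0.14 to 0.38, which is 0.905 to 1.30 times the control (edgeR quasi-likelihood adjusted p = 0.99999, unadjusted 0.330). That interval includes 0, so a difference in Calm2 was not detectable here.

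Calm3 was far lower. The cKO libraries held 204, 175 and 181 TPM and the controls 193, 198 and 186 TPM, between rank 851 and rank 988. The 3 controls lay between the cKO values, with cKO 1 again the highest library. The means were 187 ± 15.1 and 192 ± 6.02 TPM (SD, n = 3 each), from 4173 to 5837 estimated counts per library. In counts the log2 difference was -0.041 ± 0.17 (SE), with a 95% interval from -0.42 to 0.34 (edgeR quasi-likelihood adjusted p = 0.99999, unadjusted 0.812). Without cKO 2 or control 1 the sign of this small value turned, to 0.026 and 0.036.

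Calml4 was the most variable of the 3. It stood at 414, 268 and 265 TPM in the cKO and at 172, 303 and 273 TPM in the control. In each group 1 library stood away from the other two, cKO 1 at the top and control 1 at the bottom, and the remaining 4 libraries lay within 265 to 303 TPM. Group means were 315 ± 84.9 and 249 ± 68.4 TPM (SD, n = 3 each), from 1420 to 2778 estimated counts. The log2 difference in counts was 0.36 ± 0.28 (SE), with a 95% interval from -0.29 to 1.01, 0.817 to 2.02 times the control (edgeR quasi-likelihood adjusted p = 0.99999, unadjusted 0.238). It shrank to 0.13 without cKO 1 and to 0.21 without control 1. None of the 3 genes had groups that did not overlap, whereas 9.62% of all tested genes did in CPM (counts scaled by library size with TMM factors), 4.99% with the cKO above and 4.62% with it below.

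**Figure D1:**
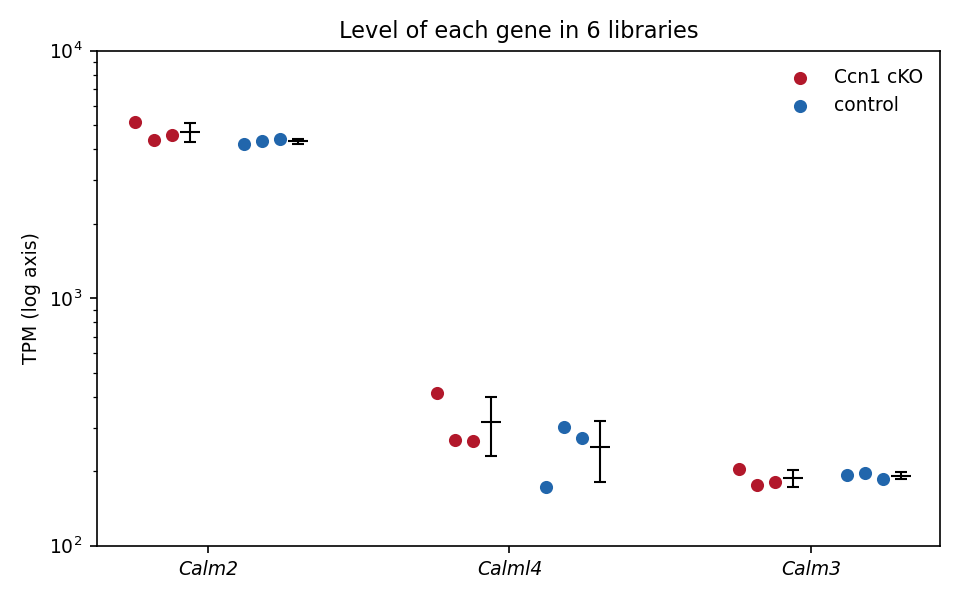
TPM of Calm2, Calml4 and Calm3 (log axis) in each of the 3 cKO (red) and 3 control (blue) libraries, with the mean ± SD of each group in black. Calm2 lies between 4203 and 5134 TPM in all 6 libraries, and the groups overlap for each gene.

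The spread over all 6 libraries set Calm2 and Calm3 apart from Calml4. The coefficient of variation of TPM was 7.38% for Calm2, 5.61% for Calm3 and 27.6% for Calml4. Among 3480 tested genes whose mean CPM was 50 or more the median was 27.5%, and 1.64% of them had a lower value than Calm2, 0.632% a lower value than Calm3 and 50.03% a lower value than Calml4. High counts alone lower this spread, so genes of a like level are the closer comparison. Of 32 other genes within 2-fold of the CPM of Calm2, 21.9% were more even than Calm2. In TPM Calm3 stood out more at its own level, where 0.992% of 907 genes were more even. For Calml4 the share was 49.6% of 2090 genes, so Calml4 varied as a gene of its level usually did. All of these comparisons are of the spread in TPM. In CPM the coefficient was 8.90% for Calm2, 8.35% for Calm3 and 25.2% for Calml4. Calm2 and Calm3 were thus closer to each other in CPM, and other genes were not compared in that unit.

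**Figure D2:**
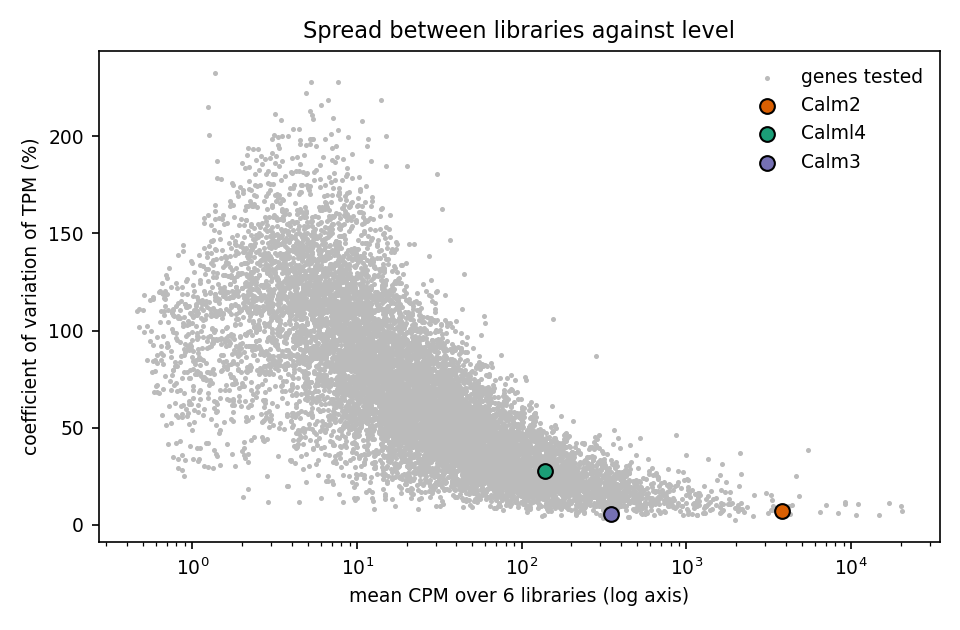
Coefficient of variation of TPM over the 6 libraries (percent) against mean CPM (log axis) for the 11574 tested genes in grey, with Calm2, Calml4 and Calm3 as coloured points. Calm3 (5.61%) lies at the lower edge of the cloud at its level, Calm2 (7.38%) among other abundant genes of low spread, and Calml4 (27.6%) in the middle.

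Within a library the order of the 3 levels was Calm2 first, with Calml4 and Calm3 well below. Calm2 exceeded Calm3 in 6 of 6 libraries, by 21.8-fold to 25.2-fold in TPM, and exceeded Calml4 in 6 of 6, by 12.4-fold to 24.4-fold. For both pairs the exact two-sided sign-flip permutation p over 6 libraries was 0.0313, the smallest possible, and 0.0469 when adjusted over the 3 pairs. Calml4 exceeded Calm3 in 5 of 6 libraries, control 1 being the exception at 172 against 193 TPM, and this order did not pass (exact permutation p = 0.0625, adjusted p = 0.0625). In raw estimated counts Calm3 stood above Calml4 in all 6 libraries, since its transcript is longer, and only the levels per length are comparable between genes. The number of counts per TPM, a measure of the effective transcript length, was 2.16 to 2.18 times that of Calm2 for Calm3 and 0.555 to 0.604 times for Calml4. In GENCODE M21 Calm2-201 measures 1205 bases, Calm3-201 2290 and Calml4-201 864, and the other coding transcripts of Calml4 are 394 to 803 bases long. Which transcripts carried the reads was not analysed. The deposited identifiers of Calm2 and Calml4 carry other version numbers than GENCODE M21, so the gene models behind the counts may differ.

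The split between Calm2 and Calm3 lay slightly apart in the libraries of each genotype, but the difference did not pass its test. Of the TPM of both genes together, Calm3 gave 3.82%, 3.87% and 3.83% with Ccn1 deleted, against control values of 4.39%, 4.36% and 4.04%. All 3 cKO values were below all 3 controls. The cKO values lay within a narrower band, at 3.84 ± 0.025% against 4.27 ± 0.20% (SD, n = 3 each). Control 3 stood apart from the other controls, and the spread of the groups was not tested. As a ratio, Calm2 was 25.2-fold, 24.8-fold and 25.1-fold above Calm3 in the cKO and 21.8-fold, 21.9-fold and 23.7-fold above it in the control. The exact two-sided permutation p was 0.1, the smallest value that 3 against 3 libraries allow, and 0.2 when adjusted over the 2 ratios tested, so the difference of 0.42 percentage points did not pass. This ratio does not depend on how libraries are scaled to each other. Calml4 amounted to 7.75%, 5.92% and 5.59% of the Calm2 and Calm3 TPM in the cKO and to 3.92%, 6.69% and 5.94% in the control. These groups overlapped (difference of log2 ratios 0.24, exact permutation p = 0.6, adjusted p = 0.6). The difference fell to 0.010 without control 1 and to 0.095 without cKO 1.

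**Figure D3:**
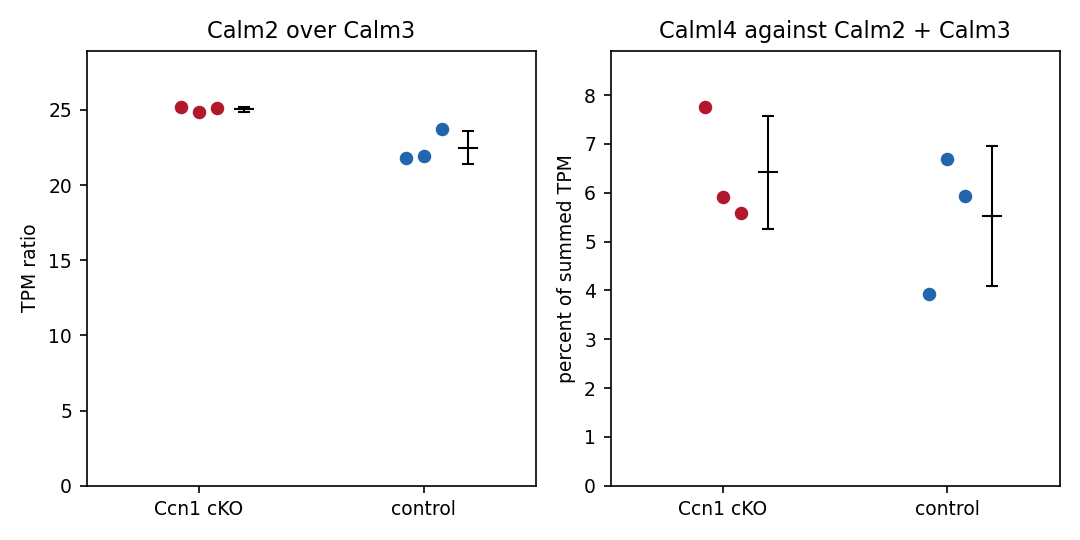
Left, TPM of Calm2 divided by TPM of Calm3 in each library; right, Calml4 TPM as a percentage of the Calm2 and Calm3 TPM, for cKO (red) and control (blue), with mean ± SD in black. The 3 cKO ratios on the left (24.8 to 25.2) lie above the 3 controls (21.8 to 23.7), and the groups on the right overlap.

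The genes whose log2 CPM followed each of the 3 most closely were sought among 3348 other genes whose mean CPM was 50 or more, after symbols that are only model or clone numbers had been left out. The points are 6 libraries that also share depth and scaling, so these coefficients are descriptions. Calm2 was most like Lgmn, which encodes the lysosomal protease legumain (Pearson r = 0.97, n = 6 libraries), Myo7a, an unconventional myosin gene (r = 0.93), and Cisd2 (r = 0.93). Calm3 was most like Ankmy2, Med9os and Bdh1, a ketone body dehydrogenase gene (r = 0.98, 0.97 and 0.97). For Calml4 these were Krcc1, Kctd17 and Parl, a mitochondrial rhomboid protease gene (r = 0.97, 0.97 and 0.96). Lgmn shared with Calm2 its highest TPM in cKO 1, at 289 against 233 to 254 in the other libraries. Parl followed Calml4 in having its highest value in cKO 1 (275 TPM) and its lowest in control 1 (102 TPM). Lgmn and Parl were picked for their correlation, so shared extremes are a result of that choice. Among themselves Calm2 and Calm3 correlated at r = 0.69, Calm2 and Calml4 at 0.47, and Calm3 and Calml4 at -0.030.

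Genes around calmodulin were followed as lists. They cover its targets and binding proteins, calmodulin-like genes, the adhesion complex of Calml4 and other EF-hand proteins. Of 172 such genes besides the 3 described, 113 were tested. By edgeR 0 of them passed at an adjusted p of 0.05 and 0 at an unadjusted p of 0.05, where 2.75% of all tested genes did the latter. DESeq2 called 0 of the 113, and limma-voom 0 (2 unadjusted). By sign alone 53 stood above and 60 below the control, and their median log2 difference was -0.050 against 0.0044 over all tested genes. The groups did not overlap for 8 of the 113 (7.08%), near the 9.62% of all tested genes. The values that follow are given as levels in ependymal cells, as mean TPM ± SD of 3 libraries in the cKO and then in the control. Absence of a call does not show absence of change, since Ccn1 itself did not pass by edgeR either.

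Ciliary calmodulin-binding and EF-hand proteins had the largest summed CPM of these groups. Capsl, which encodes a calcyphosine-like EF-hand protein, stood at 1975 ± 159 and 1664 ± 94.9 TPM. Cetn2, the gene of centrin 2, an EF-hand protein of centrioles and basal bodies, stood at 1597 ± 31.5 and 1700 ± 232 TPM, and Enkur, a calmodulin-binding axonemal protein gene, at 776 ± 83.2 and 830 ± 200 TPM. Each of these was more abundant than Calm3 and below Calm2. Of 35 tested members 17 were higher and 18 lower, with 0 called and a median of -0.016. Efcab1, an EF-hand gene of the axonemal dynein docking machinery, was picked out after its values were seen. It had all 3 cKO libraries above the controls, at 397 ± 37.4 and 312 ± 61.0 TPM (log2 difference 0.35 ± 0.15 SE, edgeR adjusted p = 0.99999, unadjusted 0.0513).

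Among the kinases that calmodulin activates, Camk1 was the most abundant at 267 ± 37.1 and 263 ± 49.2 TPM. Pnck, a close relative of Camk1, stood at 66.2 ± 13.9 and 92.0 ± 12.8 TPM, with its 3 cKO libraries below the controls in CPM (edgeR adjusted p = 0.99999, unadjusted 0.148). Phkg1, the catalytic subunit gene of phosphorylase kinase, in which calmodulin is a permanent subunit, stood at 46.8 ± 29.1 and 43.9 ± 7.15 TPM. Of 16 tested members 10 were higher and 6 lower, with 0 called and a median of 0.041. Calcineurin, the calmodulin-dependent phosphatase, was low. Its catalytic subunit gene Ppp3ca stood at 24.9 ± 6.998 and 26.5 ± 27.7 TPM, its regulatory subunit gene Ppp3r1 at 18.9 ± 12.05 and 28.1 ± 12.95 TPM, and the inhibitor gene Rcan1 at 15.5 ± 9.01 and 14.8 ± 7.08 TPM. Of 11 tested members 7 were higher and 4 lower (0 called, median 0.073).

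Proteins that bind calmodulin as buffers or adaptors were led by Pcp4l1, a gene related to Pcp4, at 472 ± 137 and 508 ± 45.5 TPM. Marcksl1 stood at 59.7 ± 12.3 and 56.3 ± 15.9 TPM, and Marcks at 24.8 ± 2.73 and 33.2 ± 10.2 TPM. Of 8 tested members 2 were higher and 6 lower, with a median of -0.51 and 0 called. Of the calmodulin-regulated enzymes, pumps and channels, Kcnn4, a calcium-activated potassium channel gene whose channel carries calmodulin, stood at 58.1 ± 5.15 and 65.8 ± 18.01 TPM. The plasma membrane calcium pump gene Atp2b1 stood at 28.3 ± 6.04 and 29.5 ± 5.54 TPM. Atp2b4, of the same family, stood at 29.4 ± 3.36 and 12.8 ± 6.68 TPM, but in counts its groups overlapped, with a log2 difference of 0.06 ± 0.46 (SE). Of 13 tested members 5 were higher and 8 lower (0 called, median -0.061).

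The known partners of Calml4 at microvilli were scarce. Ush1c, the gene of the scaffold harmonin, stood at 15.4 ± 4.26 and 8.56 ± 3.86 TPM, and Myo7b at 3.06 ± 2.85 and 4.17 ± 1.19 TPM. Of the complex's 6 genes, Calml4 included, 3 were tested, with 2 higher and 1 lower, and 2 were listed at 0 in all libraries. Calml4 itself, at 172 to 414 TPM, was thus far more abundant than Myo7b. Among IQ-motif myosins, whose lever arms carry calmodulin as light chains, Myo10, Myo7a and Myo1e were the most abundant, at 13.8 ± 2.21 and 13.8 ± 4.89, 12.6 ± 3.72 and 9.43 ± 1.94, and 5.48 ± 3.42 and 9.29 ± 8.47 TPM. Of 12 tested members of that list 5 were higher and 7 lower (0 called, median -0.22). Of the other calmodulin-like genes, Calml3, Calm4 and Calm5 were listed at 0 in all 6 libraries. Other small EF-hand calcium sensors were led by Calb1, the calbindin gene, at 385 ± 66.7 and 399 ± 84.5 TPM, Pdcd6 at 333 ± 53.1 and 309 ± 118 TPM, and Sri, the sorcin gene, at 246 ± 12.4 and 266 ± 47.2 TPM. Of 17 tested 6 were higher and 11 lower (0 called, median -0.11).

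**Figure D4:**
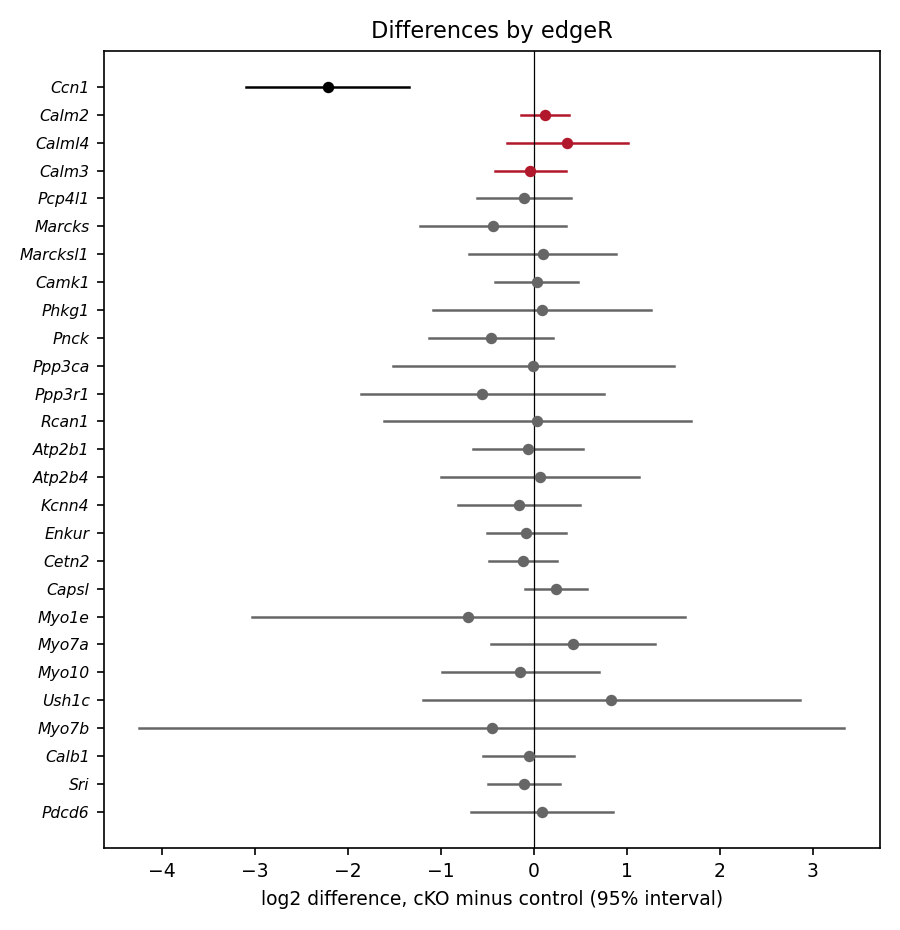
Log2 difference in counts, cKO minus control, with its 95% interval by edgeR, for Ccn1 (black), Calm2, Calml4 and Calm3 (red) and the most abundant tested genes of each list (grey). Only the interval of Ccn1 (-3.10 to -1.34) lies away from 0.

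**Figure D5:**
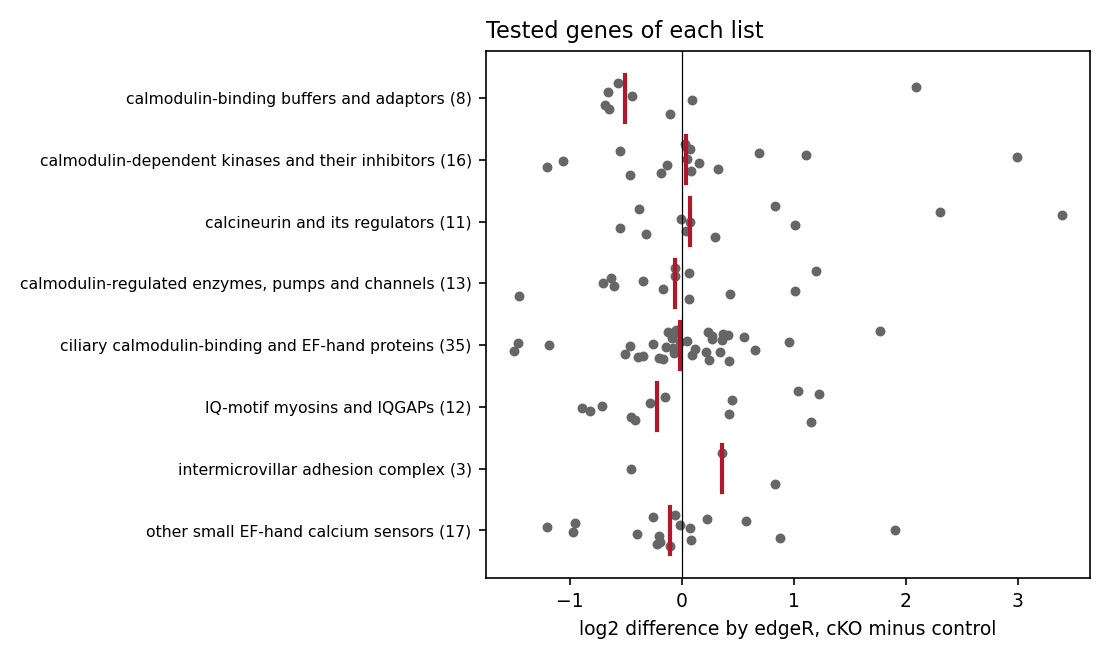
Log2 difference by edgeR, cKO minus control, of every tested gene (grey points) in the 8 lists with at least 3 tested genes, with the list median as a red bar and the number tested in brackets. Medians run from -0.51 to 0.36, and genes lie on both sides of 0 in each list.

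In bulk samples, fewer cells of a type and less RNA per cell cannot be told apart, so markers of other cells are given beside these levels. All 12 ependymal and motile cilia markers were tested, and they summed to 12617 to 12924 CPM in the cKO and 12160 to 14976 CPM in the control. Neurons are rich in calmodulin. Of the 12 neuron markers, Rbfox3, Slc17a7 and Syn1 were at 0 in all 6 libraries, and others had counts in some libraries of either group. Tubb3 had 297 counts in control 1, 243 in control 2 and 0 elsewhere (DESeq2 adjusted p = 0.0983). Stmn2 had 94 in cKO 3, 171 in control 1, 81 in control 2 and 0 elsewhere. Snap25 had 159 in cKO 2 and 38 in control 2, Gad2 79 in cKO 2, 1 in cKO 3 and 168 in control 3, and Syt1 53 in cKO 3 and 32 in control 2. Gad1 had 48 in cKO 2 and Nefl 67 in cKO 1. The neuron list summed to 387 to 509 CPM in the cKO and 319 to 561 CPM in the control, most of it Ppp1r1b (326 ± 43.7 and 347 ± 135 TPM). That sum thus mostly tracks Ppp1r1b and not the list's other markers, of which Rbfox3, Slc17a7 and Syn1 were absent. Meg3, of the same list, had 73, 131 and 287 counts in the cKO against 5, 19 and 1 in the control. DESeq2 called it (adjusted p = 0.0469), as it called 1.63% of all genes it tested, and edgeR did not (adjusted p = 0.99999). Meg3 was chosen after its values were seen. Choroid plexus markers summed to 427 to 879 and 583 to 699 CPM, with Aqp1 and Kcne2 at 0 and Ttr between 3 and 5768 counts, and Folr1 at 364 ± 62.5 and 495 ± 75.0 TPM. The list of astrocytes and neural stem cells came to 5358 to 6410 and 5745 to 7531 CPM, led by Aldoc and Gja1. Although these sums overlapped, each of its 9 tested genes had a negative log2 difference. Their median was -0.21, against 0.0044 over all tested genes. Neither edgeR nor DESeq2 called any of the 9, and the groups overlapped in CPM for each. Oligodendrocyte markers summed to 402 to 456 and 193 to 620 CPM, microglial markers to 17.5 to 41.5 and 11.5 to 37.4 CPM, and endothelial and mural markers to at most 9.99 CPM, with 6 of 9 at 0. Neuroblast and transit-amplifying markers summed to 476 to 731 CPM in the cKO and 742 to 1017 CPM in the control. These sums did not overlap, and most of that was Cd24a, which ependymal cells also express. For each of the 5 tested genes of that list the groups did overlap in CPM, and edgeR and DESeq2 called 0 of them. How often such sums do not overlap for other groups of genes was not computed. The part of these cells in the levels of Calm2, Calm3 and Calml4 was not tested.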

How the data were processed

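The submitters' processing notes name CASAVA 1.8, cutadapt 1.11 and kallisto 0.42.5, a pseudoaligner that works on short words of sequence. The sources used here give neither the build and annotation nor how transcripts were summed to genes. For each of 47643 genes the authors deposited, per the file headers, an estimated count (not normalized) and a TPM value. The 3 cKO and 3 control samples were grouped by title. After rounding of the estimated counts, genes were filtered by filterByExpr and libraries scaled with TMM. The test was the robust quasi-likelihood test of edgeR 4.0.16 (R 4.3.3) on genotype alone, with Benjamini-Hochberg adjustment over 11574 genes. Single values per library had exact two-sided permutation tests over 20 assignments. Alternatives were DESeq2 1.42.0, limma 3.58.1 (voom, and log2 TPM with a pseudocount of 1 or 0.1), other scaling and filters, a replicate block and each library left out. On simulated counts with 200 changed genes, drawn with the dispersions that edgeR had estimated, edgeR and voom missed most of the smaller changes. DESeq2 called more changed genes and also more unchanged ones. Because the simulation follows the model of edgeR, it cannot say which calls are right in the real libraries.

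The genes and the 18 lists were chosen with earlier results of these data known. Another calmodulin gene is not reported here. Named were the 3 genes, Ccn1 (listed as Cyr61), the 3 members per pathway list and leading 2 per marker list with the highest TPM, any pathway member called by edgeR, and the 3 most alike genes per gene (model-number symbols left out). Of 253 listed symbols 252 matched a single row.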

Additional observations from a re-analysis of the deposited data

How the results depend on the processing

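Calm2 stayed higher and uncalled in 10 of 10 alternatives (log2 difference 0.11 to 0.13) and without each library (0.039 to 0.19). Calml4 did so too (0.34 to 0.36, and 0.13 to 0.47). Calm3 stayed lower and uncalled in 10 of 10 (-0.046 to -0.032) and ran from -0.11 to 0.036 without 1 library. Their adjusted p ran from 0.817 to 0.99999. Ccn1 ran from -2.50 to -1.97 without 1 library and passed over all genes by DESeq2 (-2.22, adjusted p = 4.15e-06). DESeq2 called 198 genes (110 higher, 88 lower), and each of the 15 other settings called 0. The Calm2 share was 0.42 percentage points higher in the cKO, 0.83 in estimated counts and 0.36 to 0.54 without 1 library. The log2 ratio of Calml4 to Calm2 and Calm3 was 0.24 higher, and 0.010 to 0.40 without 1 library. Calm3 over Calml4 turned from -0.53 to 1.36 in estimated counts, which are not per length. With 5 libraries no order can pass, and Calm2 over Calm3 ran from 4.55 to 4.59 and Calm2 over Calml4 from 3.92 to 4.12 on the log2 scale. With the replicate block Calm2 stood at 0.11, Calm3 at -0.042, Calml4 at 0.34 and Ccn1 at -2.27, the share at 0.42, the Calml4 ratio at 0.24, and 0 genes were called, so no call changed. Same-numbered samples correlated at 0.0085, 0.028 and 0.014 in their deviations from group means. Samples with unlike numbers ran lower, from -0.017 to 0.0013. All of these values are small, and they cannot show whether the numbers pair the samples. For 23 other named genes, none of them called, the log2 TPM settings were not compared. Of 299 values in the remaining alternatives, 264 kept the sign and 35, in 16 genes, did not. By limma-voom and with the block these were Phkg1 (-0.16 and -0.14), Ppp3ca (0.31 and 0.31) and Rcan1 (-0.0030 and -0.034). Without 1 library the log2 differences of the 16 ran as follows: Pcp4l1 -0.29 to 0.093, Marcksl1 -0.059 to 0.29, Camk1 -0.092 to 0.13, Phkg1 -0.35 to 0.49, Ppp3ca -0.43 to 0.84, Rcan1 -0.51 to 0.42, Atp2b1 -0.22 to 0.10, Atp2b4 -0.11 to 0.34, Cetn2 -0.24 to 0.051, Enkur -0.21 to 0.0032, Myo10 -0.38 to 0.18, Myo1e -1.22 to 0.19, Myo7b -1.21 to 0.13, Calb1 -0.25 to 0.073, Pdcd6 -0.22 to 0.36, Sri -0.21 to 0.0081. The cause of these turns was not tested.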

Other observations

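Atp2b4, the gene of a plasma membrane calcium pump that calmodulin activates, differed between its 2 deposited units, a pattern noticed after its values were seen. Its TPM was 25.8, 30.1 and 32.4 with Ccn1 deleted, against control values of 7.39, 10.7 and 20.3, so all cKO values lay above all controls. Its estimated counts were 723, 540 and 553 against 868, 525 and 499, and those groups overlapped. On the log2(TPM + 1) scale the difference was 1.24 ± 0.56 (SE, limma adjusted p = 0.992), and the exact two-sided permutation p was 0.1, the smallest possible for 3 against 3. In counts it was 0.06 ± 0.46 (SE, edgeR adjusted p = 0.99999). Groups did not overlap in CPM for 9.62% of all tested genes, and that share was not computed in TPM. The counts per TPM of Atp2b4, relative to those of Calm2, were 2.39, 1.64 and 1.45 in the cKO and 8.41, 4.46 and 1.94 in the control, whereas for Calm3 this measure stayed at 2.16 to 2.18 in all 6 libraries. Which transcripts of Atp2b4 carried the reads was not analysed here.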
